A study of Rattus norvegicus with 70 samples.

Results

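The genes described here are 10 amino acid transporters of the rat, Slc7a1, Slc7a2, Slc7a5, Slc7a6, Slc7a7, Slc7a8, Slc3a2, Slc38a2, Slc38a4 and Slc1a5. They were chosen by symbol, and with their ozone against air values in these tissues already known, out of 19441 genes in each table. All 10 were present and passed the minimum mean value in all 6 tissues. The samples were adipose tissue, muscle, hypothalamus, lung, liver and adrenals of male Wistar-Kyoto (WKY) rats, an inbred strain, that breathed air or 0.8 ppm ozone for 4 h. No other allele or agent is named in the labels, and neither the age of the rats nor the kind of muscle or adipose depot is given in the sources used here. Lung, liver and hypothalamus each had 6 air and 6 ozone libraries, adipose tissue had 5 of each, adrenal had 5 air and 6 ozone libraries, and muscle had 6 air and 5 ozone libraries. The comparison asks how the transcripts of each tissue differ after ozone, and because these genes were selected on that contrast, their fold changes are given as descriptions.

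Cells take up most amino acids through carrier proteins of the solute carrier (Slc) families. Slc3a2 encodes the CD98 heavy chain, a membrane glycoprotein that does not carry amino acids by itself but brings light chains to the cell surface. Its light chains include Slc7a5 and Slc7a8, which exchange large neutral amino acids such as leucine across the membrane (system L), and Slc7a6 and Slc7a7, which exchange cationic amino acids such as arginine for neutral ones (system y+L). Slc7a1 and Slc7a2 carry arginine, lysine and ornithine without a heavy chain. Slc38a2 and Slc38a4 bring small neutral amino acids in together with sodium (system A), and Slc1a5 exchanges glutamine, alanine and other neutral amino acids. Amino acids that enter this way feed protein synthesis, urea and glucose production in liver, glutamine export from muscle, and the sensing of amino acids by the kinase complex mTORC1.

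RefSeq promoters on the GRCr8 build were found for 8 of the 10 genes, 9 promoters in all because Slc3a2 had 2. Slc7a2 and Slc1a5 had none in the table used. The 250 bases before the transcription start are shown for 3 genes: Slc7a1 and Slc7a5, which held a match to a searched motif, and Slc7a8, the gene with the largest difference among the 10. They read 5′ to 3′ on the gene's own strand, and capitals mark a motif match.
Slc7a1, chr12:11664238-11664487, plus strand: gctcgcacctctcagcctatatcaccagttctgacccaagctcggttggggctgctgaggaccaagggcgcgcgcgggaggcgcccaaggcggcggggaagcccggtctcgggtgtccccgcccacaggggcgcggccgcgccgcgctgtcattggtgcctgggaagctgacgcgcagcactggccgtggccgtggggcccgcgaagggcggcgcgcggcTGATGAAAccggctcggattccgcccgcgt
Slc7a5, chr19:66872413-66872662, minus strand: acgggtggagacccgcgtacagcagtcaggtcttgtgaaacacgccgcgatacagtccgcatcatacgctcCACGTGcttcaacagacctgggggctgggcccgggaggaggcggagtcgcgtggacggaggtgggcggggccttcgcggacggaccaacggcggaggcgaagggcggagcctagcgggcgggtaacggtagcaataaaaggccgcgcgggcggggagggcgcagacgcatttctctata
Slc7a8, chr15:32212716-32212965, minus strand: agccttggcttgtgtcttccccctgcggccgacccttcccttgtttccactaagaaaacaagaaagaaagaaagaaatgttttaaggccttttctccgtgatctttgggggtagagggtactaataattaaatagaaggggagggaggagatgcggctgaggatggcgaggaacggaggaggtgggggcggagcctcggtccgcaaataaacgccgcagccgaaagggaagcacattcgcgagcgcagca
In Slc7a1 the capitals mark TGATGAAA, at -30 to -23 from the start, a match to the core of the amino acid response element (TGATGNAA). In Slc7a5 they mark an E-box (CACGTG) at -179 to -174.
The motifs were chosen after the genes were known and were searched on both strands of the whole window, from 250 bases before to 50 bases after the start. TGATGNAA was found in 1 of the 9 promoters and in 3.98% of all 33365 promoters of that length, and CACGTG in 1 of 9 and in 6.43% of all. The core of the glucocorticoid response element (ACANNNTGT, 6.85% of all promoters) and the AP-1 site (TGANTCA, 7.34% of all) were found in 0 of 9.

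The number of the 10 transporters past the threshold, a Benjamini-Hochberg adjusted p under 0.05 in limma over all genes tested, differed between tissues. In lung 7 were past it, 7 higher and 0 lower after ozone, where 17.7% of all genes tested were past it, 9.51% higher and 8.18% lower. In adipose tissue 5 were past it, 5 higher and 0 lower, against 7.32% of all genes, 3.87% higher and 3.45% lower. In liver 4 were higher and 1 lower, against 11.5% of all genes, 6.74% higher and 4.72% lower. In adrenal 3 were higher and 0 lower, against 18.6% of all genes, 9.23% higher and 9.38% lower. Muscle had 3 higher and 3 lower, against 43.7% of all genes, 21.6% higher and 22.1% lower. In hypothalamus 0 of 10 passed in limma, edgeR and DESeq2 (2 had an unadjusted p under 0.05 in each), against 1.41% of all genes, 0.789% higher and 0.624% lower. The median log2 fold change of the 10 was 0.73 in adipose tissue, 0.62 in lung, 0.25 in muscle, 0.16 in liver, 0.07 in adrenal and -0.02 in hypothalamus, beside 0.02 over all genes in muscle and 0.01 or closer to 0 in the other tissues. Since the genes were chosen on this contrast, nothing is read from these counts.

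A fold change here is on the log2(value + 1) scale of the deposited size-factor-normalised values, with its standard error. Recovered reads per library ran from 8854272 to 18848151. Each labelled tissue carried its own markers: summed liver markers in liver libraries were 111533 RPM (reads of the gene in a library scaled to 1000000 reads in all) or more, and no defining marker of the labelled tissue was at 0 in its own tissue. Among these libraries 3 of lung, 2 of liver, 2 of adrenal, 3 of hypothalamus and 1 of adipose tissue also held raised markers of another tissue, and for each of the 10 transporters whose call changes without them that value is given. Scaling to the total reads instead of the authors' size factors moved the median log2 fold change of all genes to -0.30 in muscle, -0.13 in adrenal and adipose tissue, -0.07 in lung, -0.05 in liver and -0.03 in hypothalamus. It changed the split of genes past the threshold from 1410 higher and 1213 lower to 1005 and 1699 in lung, from 1294 and 1315 to 848 and 2022 in adrenal, from 120 and 95 to 90 and 110 in hypothalamus, and from 2816 and 2886 to 1119 and 4979 in muscle, with adipose tissue going from 551 and 492 to 357 and 944.

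Slc3a2, the heavy chain, was higher in 4 tissues. In adrenal the 5 air libraries held 3001, 2643, 2838, 2445 and 2736, and the 6 ozone libraries ran from 4216 through a median of 5069 to 5426. Adipose air libraries held 1407, 1791, 1522, 2036 and 1629, and the ozone libraries 3801, 3172, 3170, 3331 and 3228. In liver the air libraries ran from 604 through 791 to 919 and the ozone libraries from 1324 through 1337 to 1626. In these tissues every ozone library lay above every air library, with log2 fold changes of 0.86 ± 0.11 in adrenal, 1.00 ± 0.13 in adipose tissue and 0.83 ± 0.11 in liver. Lung had a smaller difference, with air libraries from 1925 through 2204 to 2517 and ozone libraries from 2467 through 2896 to 3227, which overlapped (0.37 ± 0.10). Scaled to total reads, the lung value was 0.30 and no longer past the threshold. Hypothalamus (0.19 ± 0.13) and muscle (0.20 ± 0.15) did not pass, and the muscle value was -0.13 when scaled to total reads.

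Slc7a5, a system L light chain known as the main leucine exchanger of growing and activated cells, was higher in 3 tissues and lower in liver. Adipose air libraries held 104, 105, 132, 165 and 132 and the ozone libraries 414, 550, 591, 747 and 693, so that the lowest ozone library was above the highest air library (log2 fold change 2.21 ± 0.19, a fold of 4.64). In lung the air libraries ran from 249 through 290 to 372 and the ozone libraries from 459 through 594 to 654, again apart (0.93 ± 0.12). In adrenal the air libraries held 1037, 1312, 891, 602 and 979 and the ozone libraries ran from 1367 through 1468 to 1710 (0.69 ± 0.17). All adrenal ozone libraries were above the air libraries, but the value fell to 0.50 and lost its call without air 9 and air 11, the adrenal libraries with the most liver markers. That fit had fewer air libraries and kept ozone 14 and ozone 15, which held 754 and 724 RPM of liver markers. The part of liver RNA in the lost call was not tested. In liver the direction was the opposite, with air libraries from 56.6 through 67.1 to 90.1 and ozone libraries from 23.5 through 33.3 to 60.7, which overlapped at 1 end (-0.94 ± 0.22). Hypothalamus (0.16 ± 0.10) and muscle (0.47 ± 0.29) were not past the threshold.

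Slc7a8, the other system L light chain, showed the largest difference of the 10 genes, in muscle. The 6 air muscle libraries ran from 257 through 363 to 466, and the 5 ozone libraries held 5090, 3981, 3639, 4180 and 6127. The groups were far apart, with a log2 fold change of 3.66 ± 0.17, a fold of 12.7, and 3.34 when scaled to total reads. Adipose air libraries held 1246, 1398, 1115, 2062 and 1420 and the ozone libraries 1852, 2215, 2211, 2773 and 2491 (0.69 ± 0.17). That adipose call was lost on leaving out any 1 of air 2, 5, 6 and 12 and ozone 19 and 23, and when scaled to total reads (0.55). Without air 2, the adipose library with raised muscle markers, the value was 0.65. In lung the air libraries ran from 150 through 201 to 249 and the ozone libraries from 229 through 316 to 333, with overlap (0.51 ± 0.14). Adrenal (0.02 ± 0.11), hypothalamus (0.07 ± 0.12) and liver (-0.20 ± 0.24) did not pass.

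Slc7a6, a y+L light chain found in many tissues, was higher with no overlap in 3 tissues. In muscle the air libraries ran from 376 through 484 to 579 and the ozone libraries held 1179, 2146, 1506, 1257 and 2304 (log2 fold change 1.77 ± 0.18). Air libraries of adipose tissue held 1544, 1571, 1743, 2262 and 3086 and the ozone libraries 6325, 5337, 5720, 4978 and 7042 (1.57 ± 0.19). In lung the air libraries ran from 496 through 727 to 909 and the ozone libraries from 1499 through 1586 to 1795 (1.23 ± 0.13). In each of these tissues the lowest ozone library was therefore above the highest air library. The values in adrenal (0.19 ± 0.20), hypothalamus (0.05 ± 0.12) and liver (-0.23 ± 0.33, with no library above 52.6) did not pass.

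Slc7a7, the y+L light chain known for exporting cationic amino acids from intestinal and kidney epithelium and expressed in macrophages, was higher in lung and adrenal. In lung the air libraries ran from 344 through 380 to 477 and the ozone libraries from 569 through 722 to 874, without overlap (0.84 ± 0.12). In adrenal the air libraries held 113, 56.2, 71.8, 122 and 81.5 and the ozone libraries ran from 121 through 156 to 170 (0.80 ± 0.20). The adrenal groups overlapped through air 9, at 122. In liver the air libraries ran from 51.8 through 61.7 to 64.6 and the ozone libraries from 24.2 through 38.9 to 76.4 (-0.56 ± 0.23, not past the threshold). Without ozone 19, which held that highest value and raised lung and fibroblast markers, Slc7a7 in liver was past the threshold, and without air 1 and ozone 19 its value was -0.78. Adipose tissue (-0.12 ± 0.12), muscle (-0.18 ± 0.26) and hypothalamus (-0.09 ± 0.21) did not pass.

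**Figure D1:**
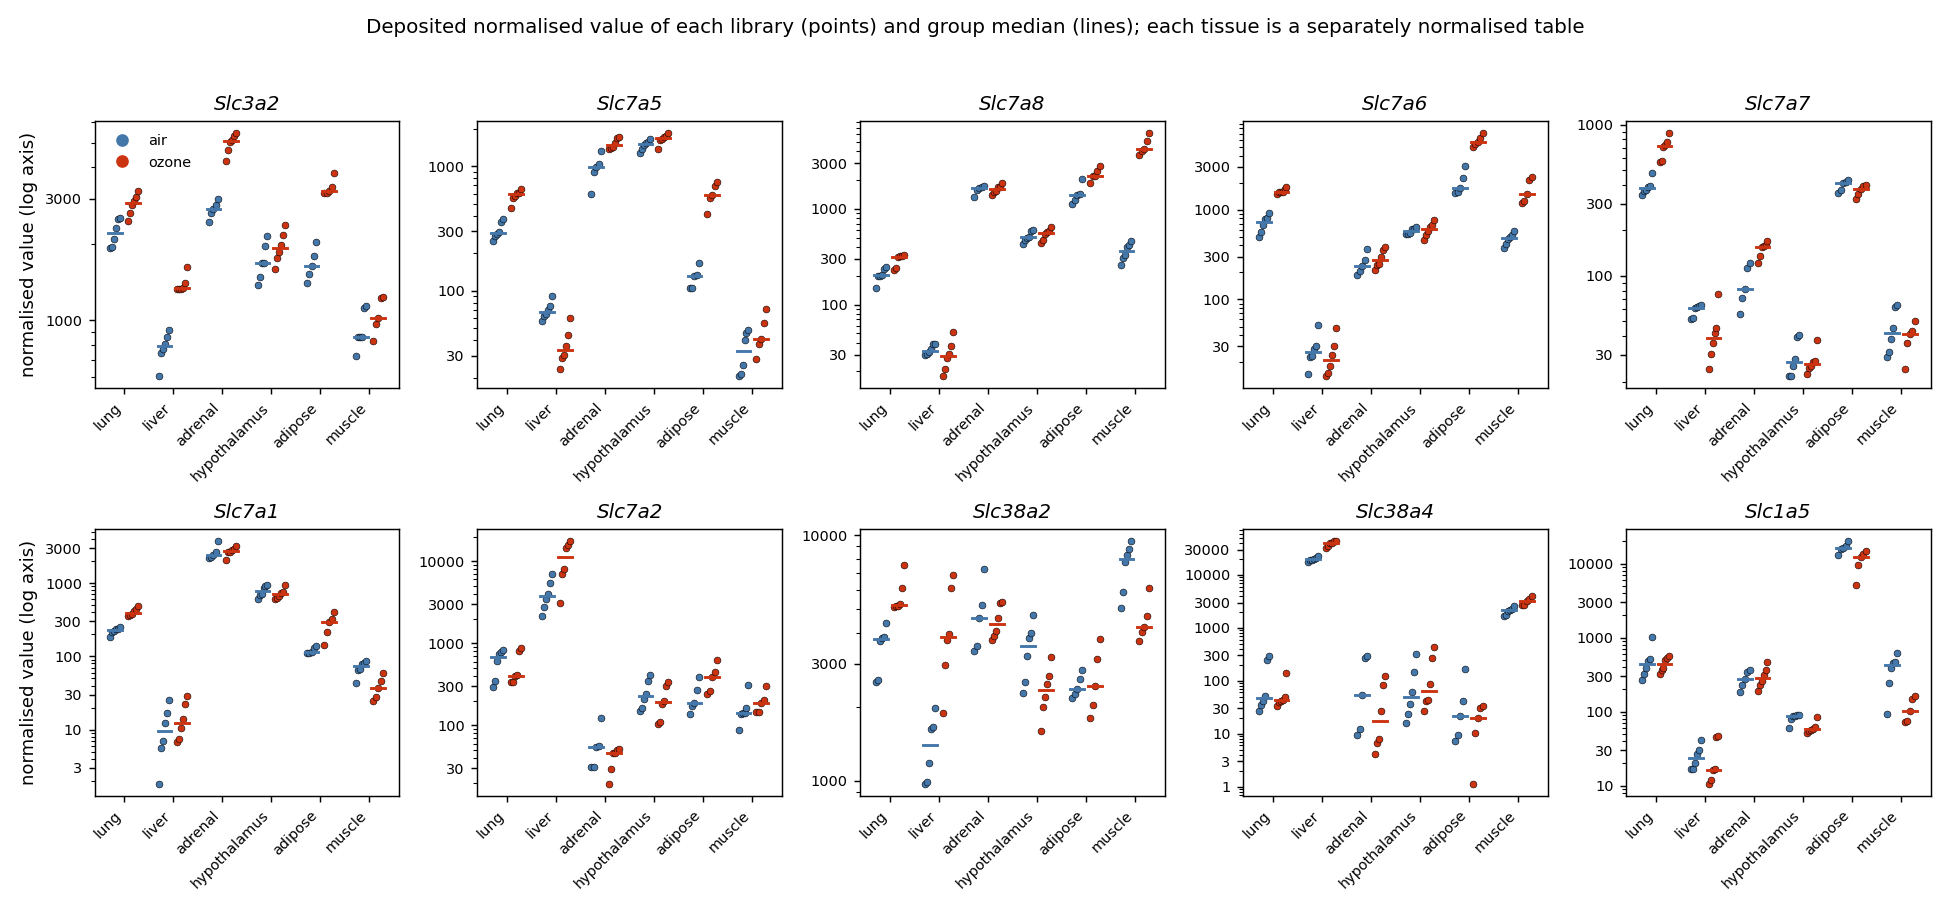
Deposited normalised value of every library (points, log axis) with the group median (lines) for the 10 transporters, air in blue and ozone in red, by tissue on the x axis. Slc7a8 in muscle, Slc7a6 in adipose tissue, lung and muscle, and Slc3a2 in liver, adrenal and adipose tissue show groups that do not overlap, while Slc38a4 scatters over a wide range in lung, adrenal, hypothalamus and adipose tissue.

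Slc7a1, the widely expressed arginine and lysine carrier, was higher in lung and adipose tissue and lower in muscle. In lung the air libraries ran from 183 through 229 to 249 and the ozone libraries from 354 through 396 to 485, without overlap (0.86 ± 0.11). In adipose tissue the air libraries held 113, 138, 130, 112 and 115 and the ozone libraries 141, 213, 295, 324 and 408 (1.09 ± 0.25). The adipose ozone libraries were all above the air libraries, but ozone 16, at 141, was close to the highest of them. In muscle the air libraries ran from 43.5 through 72.9 to 87.7 and the ozone libraries held 36.9, 46.5, 28.1, 58.5 and 24.6, with overlap (-0.88 ± 0.25). Adrenal, where its RPM was highest (0.04 ± 0.15), hypothalamus (-0.11 ± 0.14) and liver (0.51 ± 0.52, with no library above 28.4) did not pass.

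Slc7a2, whose splice forms serve liver and immune-activated cells, passed the threshold in liver only narrowly. The liver air libraries ran from 2132 through 3760 to 7079 and the ozone libraries from 3126 through 11371 to 17654. The groups overlapped, and the log2 fold change was 1.31 ± 0.40. The call was kept without air 6 or without ozone 18 and lost on leaving out any other of the 12 libraries, with no minimum mean, when scaled to total reads (1.26), and without air 1 and ozone 19, the liver libraries with raised lung and fibroblast markers (1.37). In adipose tissue the air libraries held 390, 138, 175, 271 and 188 and the ozone libraries 244, 385, 451, 266 and 630 (0.77 ± 0.31, not past the threshold). Lung (-0.20 ± 0.33), adrenal (-0.42 ± 0.37), hypothalamus (-0.34 ± 0.33) and muscle (0.31 ± 0.28) did not pass either.

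Slc38a2, the system A carrier that many cells raise when amino acids run short, was higher in liver and lung and lower in muscle. In liver the air libraries ran from 973 through 1401 to 1982 and the ozone libraries from 1885 through 3851 to 6881 (1.53 ± 0.29). Only the lowest liver ozone library fell within the air range. In lung the air libraries ran from 2531 through 3763 to 4409 and the ozone libraries from 5105 through 5202 to 7526, without overlap (0.73 ± 0.15). In muscle the air libraries ran from 5034 through 8012 to 9467 and the ozone libraries held 4020, 6083, 4218, 3695 and 4688, with overlap (-0.72 ± 0.18, and -1.04 when scaled to total reads). Hypothalamus libraries ran from 2272 through 3525 to 4713 in air and from 1592 through 2333 to 3195 after ozone, which did not pass (-0.53 ± 0.20). Adrenal (-0.05 ± 0.19) and adipose tissue (0.06 ± 0.19) did not pass.

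Slc38a4, the system A carrier best known from liver, was higher in liver and muscle. Liver air libraries ran from 17683 through 19509 to 22330 and ozone libraries from 32740 through 40336 to 43558, without overlap (0.99 ± 0.11, a fold of 1.98). In muscle the air libraries ran from 1686 through 2135 to 2583 and the ozone libraries held 3271, 2676, 2721, 3485 and 4009, again all above the air libraries (0.63 ± 0.15). The muscle value was 0.31 and lost its call when scaled to total reads. The other tissues held little of this transcript and varied widely between libraries: 27.2 to 297 in lung, 4.08 to 297 in adrenal, 16.1 to 432 in hypothalamus and 1.13 to 168 in adipose tissue. None of those tissues passed, with log2 fold changes of -0.53 ± 0.60, -1.42 ± 1.09, 0.58 ± 0.85 and -0.95 ± 0.92.

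Slc1a5, the glutamine exchanger, was lower in muscle and not past the threshold in any other tissue. The muscle air libraries ran from 91.7 through 422 to 613 and the ozone libraries held 164, 150, 72.4, 73.9 and 100 (-1.60 ± 0.42). The groups overlapped through 1 air library, air 4, at 91.7. In adipose tissue, the tissue richest in it, the air libraries held 15984, 17278, 15489, 13122 and 20128 and the ozone libraries 13469, 14948, 5084, 9675 and 12177 (-0.65 ± 0.26, not past the threshold). There 3 of the 5 ozone libraries were below every air library, and ozone 21 was the lowest. Hypothalamus (-0.43 ± 0.15), liver (-0.22 ± 0.39), lung (-0.05 ± 0.27) and adrenal (0.10 ± 0.25) did not pass.

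The muscle differences stood beside large differences in markers of the cells in the sample. In a piece of tissue, fewer cells of a type and less RNA per cell cannot be told apart. Summed muscle fibre markers ran from 81212 to 139741 RPM in air and from 176191 to 264249 after ozone, and 4 of 5 rose (limma; Tnnt3 by 1.69 ± 0.31). Fibroblast markers ran from 4676 to 17650 in air and from 899 to 4437 after ozone, and 4 of 4 fell, among them the collagen gene Col1a1 (-2.27 ± 0.52) and Dcn, decorin (-2.22 ± 0.34). Oligodendrocyte markers, which myelinating cells of nerves share, ran from 20.7 to 44.2 in air and from 2.59 to 7.27 after ozone (2 of 2 tested fell), with Mbp at -3.21 ± 0.53. Endothelial markers ran from 254 to 480 and from 180 to 233 (3 of 5 fell and 1 rose), and adipose markers from 84.0 to 277 and from 81.3 to 138 (1 of 6 fell). The astrocyte list ran from 343 to 604 and from 128 to 336 (1 of 3 tested fell). Macrophage markers ran from 70.4 to 174 and from 37.0 to 92.2 (2 of 6 tested fell, with Marco at 0), and no marker in the other lists named here was at 0 in muscle. The part of these cells in the muscle values of Slc7a8, Slc7a6, Slc38a4, Slc7a1, Slc38a2 and Slc1a5 was not tested.

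Genes of the marker lists, the tissue's own among them, also moved in lung, adipose tissue, adrenal and liver. Their part in the transporters' values was not tested. In lung, neutrophil markers ran from 59.1 to 71.1 RPM in air and from 32.4 to 43.2 after ozone (4 of 5 fell), B cell markers from 27.3 to 117 and from 13.4 to 28.5 (3 of 4 tested fell), and T cell markers from 41.9 to 65.9 and from 23.7 to 44.0 (2 of 6 fell). Lung macrophage markers ran from 508 to 551 and from 524 to 644 (2 of 6 tested rose and 2 fell), and the lung's own markers from 15485 to 24152 and from 21113 to 29204 (2 of 6 rose). Adipose markers in lung ran from 24.8 to 701 in air and from 24.8 to 159 after ozone (1 of 6 fell). Of 5 endothelial markers in lung 1 rose and 1 fell, and the 1 hypothalamus marker tested there rose. In adipose tissue its own markers ran from 15647 to 20531 and from 18159 to 26008, with the lipid droplet gene Cidec up (1.43 ± 0.18) and Pparg down (-0.81 ± 0.21), and macrophage markers from 349 to 898 and from 546 to 716 (0 of 6 tested passed, with Marco at 0). There 1 of 2 neutrophil markers tested and 1 of 3 adrenal cortex markers tested fell, and 1 of 5 endothelial markers rose. An endothelial marker, 1 of 5, also rose in adrenal. In adrenal, medulla markers ran from 950 to 2476 and from 1647 to 2998 (Th rose by 0.99 ± 0.20), adipose markers from 183 to 447 and from 260 to 805 (2 of 6 rose) and lung markers from 5.17 to 88.7 and from 15.8 to 355 (1 of 6 rose). In liver, the summed adipose list ran from 26.2 to 35.9 and from 32.5 to 58.2 (Cidec rose by 0.68 ± 0.13). Adipoq, a member of that list, was at 2.50 RPM or less in every liver library. Liver oligodendrocyte markers ran from 7.02 to 15.0 and from 7.02 to 11.9 (1 of 3 tested fell), and the liver's own markers from 111533 to 128562 and from 117287 to 137226 (1 of 6 rose).

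The level of each transporter in air, in RPM, set the tissues in a different order for each gene. The tables were normalised separately and no test was made across them, so the order is a description, and neighbours in it are called apart only where their libraries did not overlap. Slc3a2 was highest in adrenal (259 ± 22.4, SD, n = 5), then lung (184 ± 25.6, n = 6), hypothalamus (145 ± 22.5, n = 6), adipose tissue (112 ± 20.2, n = 5), muscle (61.3 ± 8.36, n = 6) and liver (54.7 ± 7.37, n = 6). Adrenal was apart from lung, and adipose tissue from muscle, while the other neighbours overlapped. Slc7a5 was highest in hypothalamus (126 ± 11.1, n = 6) and adrenal (92.0 ± 27.8, n = 5), which overlapped, and each later neighbour was apart: lung (25.3 ± 4.47), adipose tissue (8.55 ± 1.88), liver (4.89 ± 0.97) and muscle (2.24 ± 0.88). Slc7a8 was highest in adrenal (151 ± 17.3) and adipose tissue (97.2 ± 27.4), which overlapped, then hypothalamus (43.9 ± 6.13), muscle (24.2 ± 5.46) and lung (17.0 ± 2.75), of which the last 2 overlapped, and liver was apart below them (2.36 ± 0.23). After ozone, muscle held 244 ± 47.3 RPM (SD, n = 5) of Slc7a8, above the highest air mean of that gene in any tissue.

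Slc7a6 was highest in adipose tissue (136 ± 43.9), apart from lung (58.1 ± 11.9), which overlapped hypothalamus (49.0 ± 3.84). Muscle (31.8 ± 4.93) and adrenal (23.9 ± 5.35) followed and overlapped, and liver was lowest (2.04 ± 1.01). Slc7a7 was highest in lung (32.2 ± 4.13) and adipose tissue (26.6 ± 2.88), which overlapped, followed by adrenal (8.45 ± 2.80), and lowest in liver (4.12 ± 0.32), muscle (3.02 ± 1.07) and hypothalamus (2.51 ± 0.70), which overlapped in turn. Slc7a1 had no overlapping neighbours, falling from adrenal (255 ± 64.0) through hypothalamus (66.6 ± 12.4), lung (18.5 ± 2.09), adipose tissue (8.12 ± 0.92) and muscle (4.72 ± 1.19) to liver (0.80 ± 0.57). Slc7a2 was apart from the rest in liver (292 ± 136), while lung (49.8 ± 18.3), hypothalamus (21.6 ± 9.01), adipose tissue (15.4 ± 6.29), muscle (11.2 ± 6.08) and adrenal (5.69 ± 3.71) each overlapped the next. The 2 cationic carriers thus had their lowest and highest tissues the other way round, with liver lowest for Slc7a1 and highest for Slc7a2.

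Slc38a2 ran from muscle (502 ± 117), adrenal (449 ± 117), hypothalamus (291 ± 82.5) and lung (287 ± 57.5), which overlapped in turn, to adipose tissue (163 ± 12.9) and liver (98.1 ± 32.1), which were each apart from the tissue before. Slc38a4 was highest in liver (1372 ± 82.8) and then muscle (139 ± 28.5), both apart from the rest, and adrenal, lung, hypothalamus and adipose tissue had means from 12.3 to 3.23 with overlapping libraries. Slc1a5 was highest in adipose tissue (1094 ± 164), apart from lung (41.2 ± 22.9), adrenal (26.6 ± 8.08) and muscle (25.3 ± 13.0), which overlapped in turn. Muscle overlapped hypothalamus (6.95 ± 0.87), and liver (1.79 ± 0.75) was apart at the low end.

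**Figure D2:**
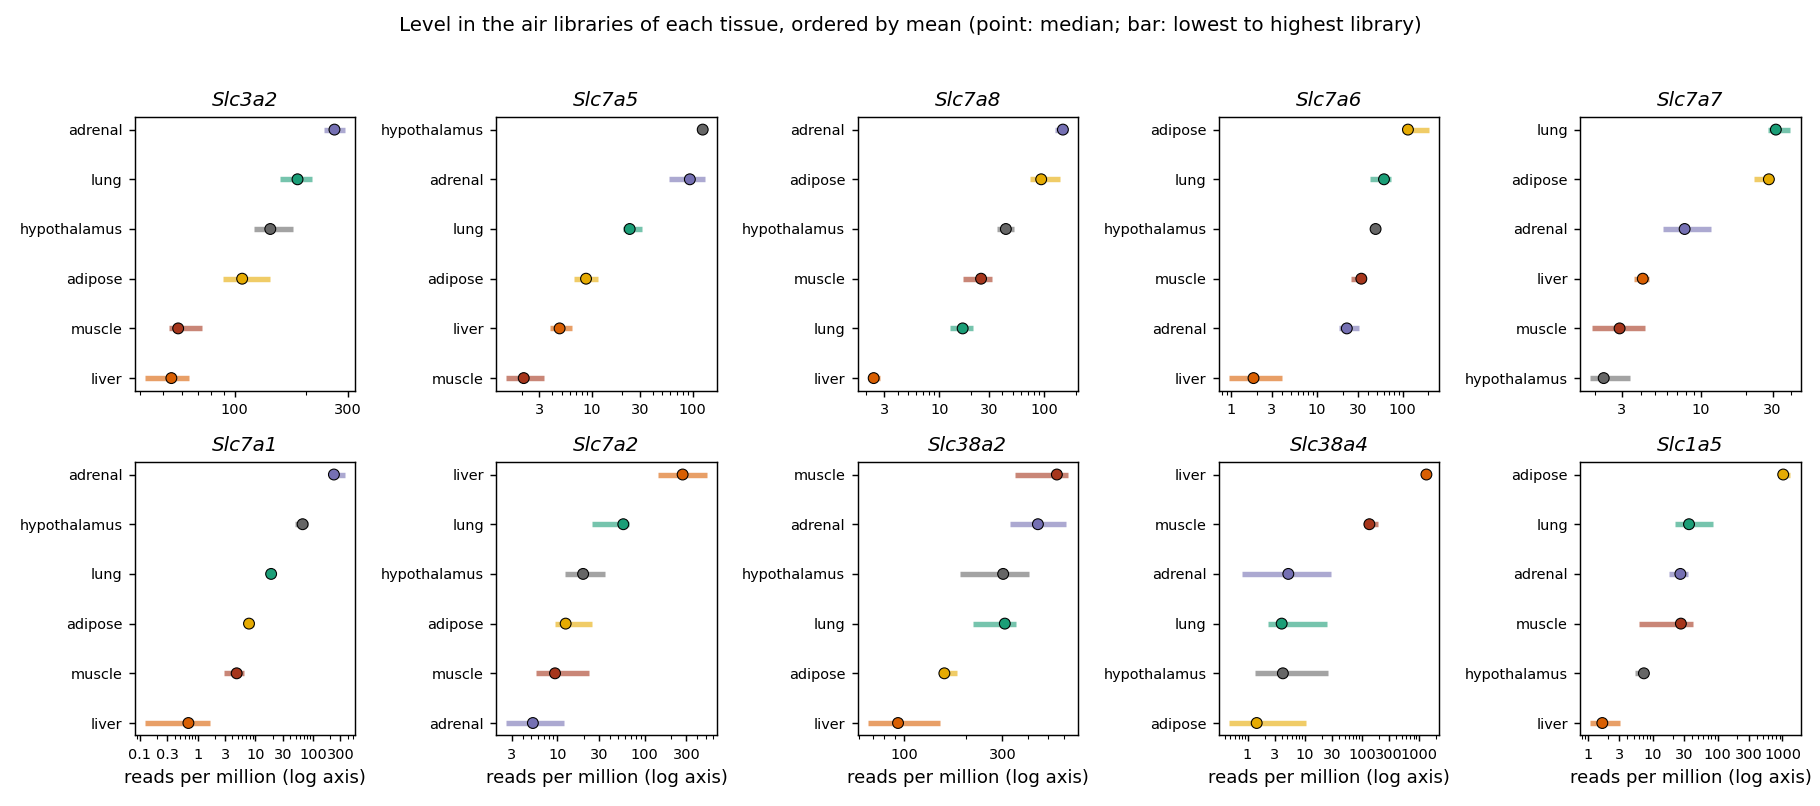
RPM in the air libraries (x axis, log scale) of each tissue, 1 panel per gene with tissues ordered by their mean; points are medians and bars run from the lowest to the highest library. Slc38a4 in liver and Slc1a5 in adipose tissue stand apart from every other tissue, and Slc3a2 spans the narrowest range of means (54.7 to 259).

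Slc38a4 varied together with markers of liver in the hypothalamus libraries and in the adrenal ozone libraries. The relation was not computed in adipose tissue or among the adrenal air libraries. In hypothalamus, the air libraries with the most and the least Slc38a4 held 26.0 and 1.37 RPM, beside 1201 and 35.8 of summed liver markers. Across the 6 air libraries of hypothalamus Pearson's r was 0.98 on the log2(RPM + 1) scale (exact permutation p = 0.00139, adjusted 0.00833; Spearman's rho 1.00, p = 0.00278, adjusted 0.00833), and 0.98 without the 2 libraries farthest from the median. Across its 6 ozone libraries r was 0.93 (exact permutation p = 0.00556, adjusted 0.0111; rho 1.00, p = 0.00278), and 0.86 without 2. In adrenal, r across the 6 ozone libraries was 0.96 (exact permutation p = 0.00278, adjusted 0.00833; rho 0.94, p = 0.0167, adjusted 0.0333), and 0.79 without 2. In each of these groups a library with more liver markers tended to hold more Slc38a4. In lung the relation rested on few libraries: r was 0.97 in air (exact permutation p = 0.0319, adjusted 0.0383; rho 0.71, p = 0.136) and -0.16 without 2, and 0.77 after ozone (exact permutation p = 0.0986; rho 0.37, p = 0.497) and -0.19 without 2. The 2 lung air libraries with the most Slc38a4, air 2 and air 8, held 707 and 1049 RPM of Alb, which encodes albumin, against 17.9 to 51.3 in the other 4. These p-values are two-sided and adjusted over 6 relations, which were chosen after the values of these libraries had been seen. They describe those relations only. Leaving out the libraries with raised markers of another tissue moved the log2 fold change of Slc38a4 from -1.42 to 0.12 in adrenal, from -0.53 to 0.45 in lung, from 0.58 to 1.06 in hypothalamus and from -0.95 to -0.29 in adipose tissue. In lung, adrenal and adipose tissue the libraries left out were all air libraries, among them those with the most Slc38a4. The upward moves there therefore followed from that choice. Some ozone libraries with liver markers were kept, such as adrenal ozone 14 and 15 (754 and 724 RPM) and lung ozone 15 (273). The part of liver RNA in these moves was not tested. The adipose library with the most Slc38a4, air 2 (10.7 RPM), also had the most muscle markers, 13612 RPM against 165 to 2310 in the other air libraries.

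Slc1a5 was set beside adipose markers in the same way. In muscle, the air library with the least Slc1a5, air 4 (6.05 RPM), had the fewest adipose markers (84.0), and the other air libraries held 15.7 or more of Slc1a5 beside 134 or more of adipose markers. Across the 6 muscle air libraries r was 0.93 (exact permutation p = 0.025, adjusted 0.0375), but rho was 0.60 (p = 0.242, adjusted 0.29) and r was -0.45 without the 2 farthest libraries, so the relation rested on those. In lung the library with the most Slc1a5, air 10 (1015), had 701 RPM of adipose markers, against 24.8 to 225 in the other lung air libraries. The part of carried-over tissue in these values was not tested.

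**Figure D3:**
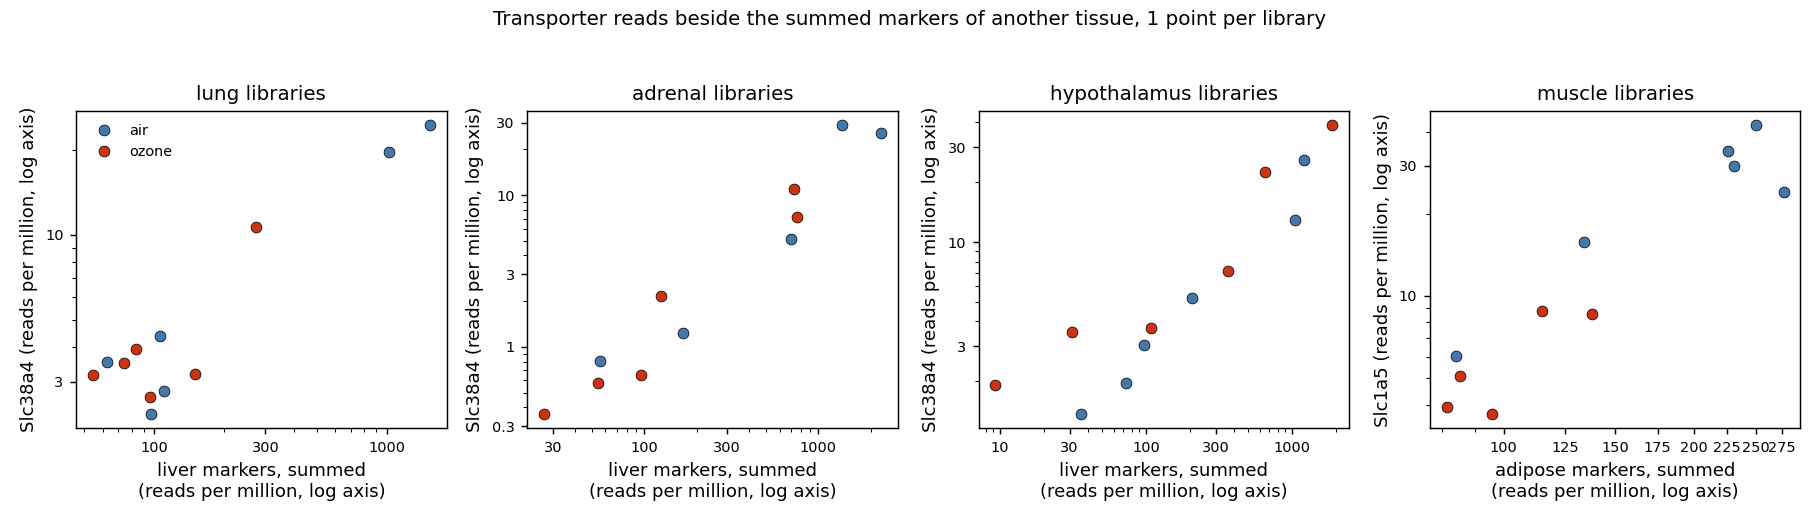
RPM of Slc38a4 against summed liver markers in lung, adrenal and hypothalamus libraries, and of Slc1a5 against summed adipose markers in muscle libraries (both axes logarithmic, 1 point per library, air in blue and ozone in red). The hypothalamus air points run from 1.37 to 26.0 as liver markers run from 35.8 to 1201.

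The heavy chain and its light chains were compared between libraries of the same group, a measure on which the genes were not chosen. Over 8 groups of 6 libraries and 4 light chains, 32 relations on the log2(value + 1) scale had r from -0.90 to 0.92 with a median of -0.01, and 15 were positive. With 6 libraries an exact permutation p could not be under 0.00139, so a lone relation could pass only at the most extreme of all pairings. None passed after adjustment (0 of 32, exact permutation test, lowest adjusted p = 0.40), and 3 had an unadjusted p under 0.05. The strongest positive one was Slc3a2 with Slc7a5 in lung air libraries, with r = 0.92 (exact permutation p = 0.0125, adjusted 0.40; rho 0.94, p = 0.0167, adjusted 0.267) and 0.83 without the 2 farthest libraries. Slc3a2 with Slc7a5 in lung ozone libraries had r = 0.81 (exact permutation p = 0.0375, adjusted 0.40), which was close to 0 without 2 libraries. That fall depended on the scale: on log2(RPM + 1) r was 0.77 (exact permutation p = 0.0458, adjusted 0.489), and 0.98 without 2 libraries. Slc3a2 with Slc7a8 in hypothalamus air libraries had r = -0.90 (exact permutation p = 0.0278, adjusted 0.40).

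Of 37 other amino acid transporters listed beside the 10, 34 were in the tables. In muscle 2 of 21 tested rose and 10 fell (median log2 fold change -0.50), where 21.6% of all genes tested rose and 22.1% fell. Slc38a1, a system A carrier, fell from 372 ± 246 (SD, n = 6) to 75.8 ± 75.0 (SD, n = 5; -2.60 ± 0.62, limma adjusted p = 0.00494). Slc7a10, a light chain for small neutral amino acids that is known from adipocytes and brain, fell from 22.7 ± 19.0 to 2.60 ± 1.00 (-2.41 ± 0.51, limma adjusted p = 0.00207). Slc3a1, the heavy chain of cystine transport, fell from 1129 ± 358 to 368 ± 52.1 (-1.56 ± 0.21, limma adjusted p = 0.000127), and Slc36a1, a proton-coupled carrier of the lysosome, from 199 ± 49.2 to 76.4 ± 20.9 (-1.38 ± 0.20, limma adjusted p = 0.000228). Slc36a2 (-1.71 ± 0.38), Slc1a3 (-1.27 ± 0.40, not past the threshold without ozone 23) and the glutamate carrier Slc1a1 (-1.12 ± 0.27) fell as well. Slc38a3 (0.74 ± 0.24) and Slc43a1 (0.55 ± 0.18) rose, but neither call held when scaled to total reads, nor Slc38a3 without air 7 or ozone 15, nor Slc43a1 without air 4, ozone 15 or ozone 24. The part of the fibroblast, nerve and adipose markers given above in these changes was not tested.

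In liver 2 of 19 other transporters rose and 1 fell, where 6.74% of all genes tested rose and 4.72% fell. Slc16a10, which carries aromatic amino acids, rose from 264 ± 38.0 to 1022 ± 210 (SD, n = 6 each; 1.94 ± 0.15, limma adjusted p = 2.33e-06), and Slc1a4, a neutral amino acid exchanger of the same family as Slc1a5, from 130 ± 48.9 to 328 ± 48.7 (1.38 ± 0.21, limma adjusted p = 0.000471), each with all ozone libraries above the air libraries. In lung 3 of 28 rose and 1 fell, where 9.51% of all genes tested rose and 8.18% fell. The taurine transporter Slc6a6 rose (0.73 ± 0.12, limma adjusted p = 0.000604), Slc43a1 rose (0.82 ± 0.23, not past the threshold without air 8), and the broad amino acid carrier Slc6a14 fell (-0.44 ± 0.09, limma adjusted p = 0.00428). In adrenal 5 of 24 rose and 2 fell, where 9.23% of all genes tested rose and 9.38% fell. The rises were led by Slc38a1 (275 ± 87.7 to 838 ± 199, log2 fold change 1.62 ± 0.22, limma adjusted p = 0.000362) and the synaptic vesicle carrier Slc6a17 (1.59 ± 0.34, limma adjusted p = 0.00567), while Slc1a3 fell (-0.52 ± 0.14, not past the threshold without air 6). In adipose tissue 2 of 24 rose and 3 fell, where 3.87% of all genes tested rose and 3.45% fell. There Slc6a6 fell (-1.54 ± 0.19, limma adjusted p = 0.000756), and Slc16a10 (0.76 ± 0.20), Slc1a4 (0.53 ± 0.15) and Slc6a9 (-0.96 ± 0.23) lost their calls without 7, 8 and 7 of the 10 libraries in turn.

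Slc38a9, a lysosomal arginine sensor of mTORC1, was the 1 other transporter called in hypothalamus (0 of 26 rose and 1 fell; -0.66 ± 0.14, limma adjusted p = 0.0364, lost without 9 of 12 libraries in turn). It also fell in liver (-0.59 ± 0.16, lost without 5 of 12), adrenal (-0.78 ± 0.25, lost without 9 of 11) and muscle (-0.66 ± 0.18, lost without 0 of 11). Of all genes tested in hypothalamus, 0.789% rose and 0.624% fell. The medians of the other transporters were -0.05 in lung, 0.02 in liver, -0.12 in adrenal, -0.09 in hypothalamus and -0.21 in adipose tissue.

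**Figure D4:**
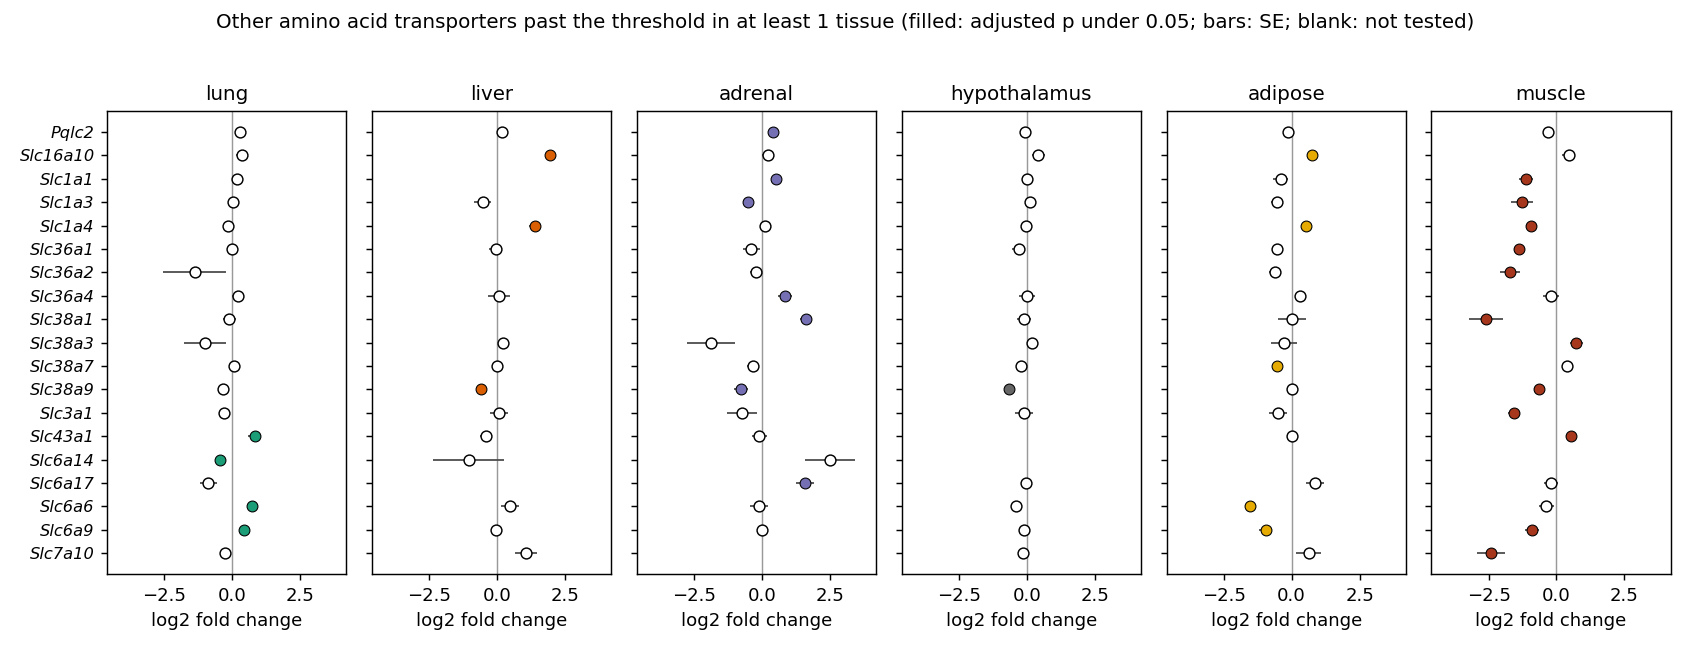
Log2 fold change of ozone against air (x axis) with its standard error for the 19 other amino acid transporters past the threshold in at least 1 tissue (rows), by tissue (panels). Filled points are past the threshold, open points are not, and a blank means that the gene was under the minimum mean there. Most filled points in muscle lie to the left of 0.

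A list of 25 genes of the ATF4 branch of the amino acid response had 23 in the tables. It held genes that the transcription factor ATF4 switches on when amino acids are short. Atf4 itself and the kinase genes Eif2ak3 and Eif2ak4, which act before it, were also listed. In lung 10 of 22 rose and 0 fell (median 0.32), among them Atf4 itself (0.62 ± 0.10, limma adjusted p = 0.000429) and Psat1 of serine synthesis (0.68 ± 0.10, limma adjusted p = 0.000327). In adrenal 9 of 22 rose and 0 fell (median 0.46), with the asparagine synthetase gene Asns up from 151 ± 16.4 (SD, n = 5) to 306 ± 50.6 (SD, n = 6; 1.00 ± 0.15, limma adjusted p = 0.000548) and Mthfd2, a mitochondrial folate enzyme, up by 0.75 ± 0.11. In liver 5 of 20 rose and 0 fell (median 0.23), including Sesn2 (1.09 ± 0.23) and Psat1 (0.89 ± 0.20), and the count was 3 without air 10 or without ozone 14. In adipose tissue 4 of 22 rose and 0 fell (median 0.21), with Mthfd2 at 1.88 ± 0.33 and Atf4 at 0.87 ± 0.16, and the count was 2 without any 1 of air 2, air 6, air 9, ozone 19 and ozone 23. In muscle 5 of 20 rose and 3 fell (median 0.14): Eif4ebp1, a repressor of translation, rose (1.74 ± 0.20, limma adjusted p = 3.63e-05) and so did the tRNA synthetase gene Nars (0.63 ± 0.11), while Asns (-1.18 ± 0.26) and Eif2ak3 (-0.69 ± 0.18) fell. The muscle count, 8 of 20, was near the 43.7% of all genes that passed there. Elsewhere 17.7% of all genes passed in lung, 18.6% in adrenal, 11.5% in liver, 7.32% in adipose tissue and 1.41% in hypothalamus. In hypothalamus 0 of 22 rose or fell in limma (5 had an unadjusted p under 0.05) and in edgeR, and 1 rose in DESeq2. Scaled to total reads, 7 rose in lung, 6 in adrenal, and 3 rose and 5 fell in muscle. Without the libraries with other tissues' markers, 10 rose in lung, 7 in adrenal, 5 in liver and 2 in adipose tissue.

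The list of genes through which mTORC1 senses amino acids had 26 of 28 in the tables. Nprl3, a subunit of the complex that restrains mTORC1, was called lower in 4 tissues, at -0.66 ± 0.11 in lung, -1.02 ± 0.17 in liver, -1.21 ± 0.15 in adrenal (limma adjusted p = 0.000226) and -1.04 ± 0.19 in adipose tissue. Its partner Depdc5 fell in adrenal (-0.97 ± 0.13) and adipose tissue (-0.50 ± 0.12, lost without 6 of 10 libraries in turn). Gatsl3, the table's older symbol for the arginine sensor Castor1, rose in lung (0.72 ± 0.10), adipose tissue (0.75 ± 0.16), muscle (1.16 ± 0.24) and adrenal (0.56 ± 0.18, lost without 9 of 11 libraries in turn). Sesn1, of the leucine-sensing sestrins, rose in lung (0.76 ± 0.10), hypothalamus (0.53 ± 0.09) and muscle (1.59 ± 0.18, limma adjusted p = 3.47e-05), and Sesn2 rose in lung (0.65 ± 0.11), liver (1.09 ± 0.23) and adrenal (0.54 ± 0.14, lost without air 6). Over the list 3 rose and 2 fell of 26 in lung, 3 and 1 of 25 in liver, 2 and 2 of 26 in adrenal, 1 and 0 of 26 in hypothalamus, 1 and 2 of 26 in adipose tissue, and 9 and 2 of 26 in muscle, where Sar1b rose (1.20 ± 0.17) and Fnip1 (-1.24 ± 0.20) and Rragc (-0.41 ± 0.11) fell. The 11 of 26 in muscle were near the share of all genes that passed there, 43.7%, and became 5 up and 2 down when scaled to total reads. In adrenal that scaling gave 1 up and 6 down. Elsewhere 17.7% of all genes passed in lung, 18.6% in adrenal, 11.5% in liver, 7.32% in adipose tissue and 1.41% in hypothalamus. The unscaled counts of the list in lung and adrenal were near these shares. In liver the count was 2 without any 1 of air 6, air 10, ozone 14, ozone 18 and ozone 20, which ended the calls of Rraga and Sar1b. Rragd in lung (-0.54 ± 0.17) and Sar1b in liver (0.41 ± 0.11) lost their calls without 9 and 8 of 12 libraries in turn.

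Of 27 listed enzymes that use the carried amino acids, 26 were in the tables. Of all genes tested, 11.5% passed in liver, 43.7% in muscle, 17.7% in lung, 18.6% in adrenal, 7.32% in adipose tissue and 1.41% in hypothalamus. The enzyme counts in lung, adrenal and adipose tissue, given below, were near these shares. In liver 11 of 25 tested rose and 0 fell (median 0.53). Got1, aspartate aminotransferase, went from 4264 ± 1868 to 28808 ± 5386 (SD, n = 6 each; 2.85 ± 0.25, limma adjusted p = 4.95e-06) and Tdo2, the first enzyme of tryptophan breakdown, rose by 2.02 ± 0.19. In muscle 9 of 19 rose and 2 fell (median 0.41): the alanine aminotransferase gene Gpt2 (1.73 ± 0.21, limma adjusted p = 6.18e-05) and the glutamine synthetase gene Glul (1.53 ± 0.23) rose, and Odc1 of polyamine synthesis (-0.54 ± 0.16) and Bcat1 (-1.08 ± 0.36, lost without 5 of 11 libraries in turn) fell. Scaled to total reads, 4 rose and 4 fell in muscle, and without ozone 24 the count of 11 was 7. In lung 4 of 23 rose and 1 fell, with Glul (1.42 ± 0.12) and Odc1 (1.17 ± 0.11) up and Gpt down (-0.43 ± 0.12, lost without ozone 14 or ozone 19). The 5 lung calls became 3 without any 1 of air 7, air 8, ozone 13, ozone 14 and ozone 20, 2 without ozone 19, 3 without the libraries with other tissues' markers, and 2 up and 2 down when scaled to total reads. Adrenal had 4 of 26 up and 1 down, with Nos1 (2.24 ± 0.41) and Bcat1 (1.18 ± 0.13) up. In adipose tissue Gpt2 (1.29 ± 0.26) and Glul (0.92 ± 0.22, lost without any 1 of air 2, air 5, air 6, ozone 16 and ozone 23) rose, 2 of 22, and in hypothalamus Azin1 was the 1 of 26 called (0.53 ± 0.12, lost without 10 of 12).

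Among 11111 genes tested in all 6 tissues, the genes whose 6 log2 fold changes lay nearest to those of a transporter were found by Euclidean distance, for the 9 transporters with an absolute value of at least 1 in a tissue. Slc3a2 lay nearest to Rlim (distance 0.27) and Gnl3 (0.32), Slc1a5 to Tnfrsf26 (0.31) and Abca1 (0.42), and Slc7a2 to Fbxo15 (0.37) and Plekhm3 (0.47). Slc7a1 lay nearest to AABR07067600.1 (0.56) and Wee1 (0.60), and Slc38a2 to Wasl (0.67) and Ttpal (0.83). Slc7a6 lay nearest to Glul (0.82) and Bcl2l1 (0.89), and Slc38a4 to Ubac1 (0.87) and Trpt1 (0.97). The distances of Slc38a4 use the fold changes with all libraries, including the lung, adrenal, hypothalamus and adipose values that moved when libraries with other tissues' markers were left out. The patterns of Slc7a8 (Pfkfb4 at 1.07 and Mrpl41 at 1.24) and Slc7a5 (Nfx1 at 1.05 and Pxdc1 at 1.21) had no gene within a distance of 1.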

How the data were processed

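Per the labels' protocols, RNA came from frozen tissue, through Qiagen kits (lung, liver, muscle, adipose tissue) or Zymo kits (hypothalamus, adrenal), and libraries of messenger RNA were read on an Illumina NextSeq. The authors deposited 1 table per tissue of signal values, gene counts divided by a size factor per library (worked out from the values, of which 100% gave whole reads to within 0.01). Partek, DESeq2 and rn6 appear in the submitters' processing notes, with no aligner or strand setting given. Of 70 labelled libraries, 68 had a column; muscle ozone 17 and adrenal air 7 were not used here. Entries carrying a date were left out. No library was a copy of another (lowest chi-square per degree of freedom 8.76). limma 3.58.1 (R 4.3.3; trend, robust) was run for each tissue apart on log2(value + 1) of genes with a mean of at least 10, with a threshold of adjusted p under 0.05. The labels do not say that each library came from another rat, so p-values measure the spread between libraries. The 10 members and the gene lists were chosen with earlier results of these data known. The relations of Slc38a4 and Slc1a5 with other tissues' markers were chosen after the data were seen. Genes named from a list are the 2 past the threshold with the lowest adjusted p in each direction and, of other transporters, those with an absolute log2 fold change of at least 1; Slc38a9 and Gatsl3 in muscle and Sesn2 in lung were added after their values were seen. Alternatives were edgeR 4.0.16 and DESeq2 1.42.0 on recovered reads, pseudocounts of 0.5 and 5, other minimum means, array weights, each library left out and, chosen after seeing the data, scaling to total reads and leaving out libraries with other tissues' markers. The fits were checked on simulated data. Some genes that the naming rule covers are not reported here.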

Additional observations from a re-analysis of the deposited data

Results flagged for a closer look

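A library far from the others of its group was found in 10 of the 120 groups of transporter values examined. By its nominal level, the rule finds about 1 in 20 by chance alone, a rate that was not measured in these data. High values were Slc7a2 in adrenal air 9 (123, others 31.1 to 56.4) and muscle air 7 (315, others 88.7 to 163), Slc7a7 in hypothalamus ozone 14 (37.6, others 22.3 to 27.3), Slc3a2 in liver ozone 18 (1626, others 1324 to 1409) and adipose ozone 16 (3801, others 3170 to 3331), and Slc38a4 in lung ozone 15 (141, others 32.8 to 49.4) and adipose air 2 (168, others 7.20 to 42.3). Slc1a5 was high in lung air 10 (1015, others 263 to 508) and hypothalamus ozone 17 (84.3, others 52.0 to 61.7), and low in hypothalamus air 3 (60.9, others 79.6 to 90.3).

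For 4 pairs of tissues, a transporter outside the 10 had every ozone library on opposite sides of the air libraries. Slc1a4 was higher in liver (1.38) and adipose tissue (0.53) and lower in muscle (-0.92), which gives differences of 2.31 and 1.45 in log2 fold change. Slc6a6 was higher in lung (0.73) and lower in adipose tissue (-1.54), a difference of 2.27, and Slc1a1 was higher in adrenal (0.52) and lower in muscle (-1.12), a difference of 1.64. These differences between tissues were not tested.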

How the results depend on the processing

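Of 26 transporter values past the threshold, 21 kept their call under every alternative, and none of the 521 recomputed values of these 26 changed sign; 6 of 1201 recomputed values moved by 1 SD or more. The counts of the 10 past the threshold stayed within 1.5 times under every setting. The counts of other transporters moved more. In lung the count of 4 became 7 with array weights and 2 to 5 without 1 library. In adrenal the count of 7 became 4 when scaled to total reads, 4 without the libraries with other tissues' markers, and 3 to 9 without 1 library. In hypothalamus the count of 1 became 0 without the marked libraries and 0 to 1 without 1 library. In adipose tissue the count of 5 became 3 with no minimum mean, 2 without the marked library and 1 to 4 without 1 library, and in muscle the count of 12 became 7 with a minimum mean of 50. Among the other gene lists, the count of ATF4 genes in adipose tissue (4) became 7 with DESeq2 and 2 without the marked library, and in hypothalamus (0) 1 with DESeq2 or array weights. That of mTORC1 genes became 8 with array weights and 7 when scaled to total reads in adrenal (4), 2 with DESeq2 and 3 with array weights in hypothalamus (1), and 7 when scaled to total reads in muscle (11). That of enzymes became 9 with array weights in adrenal (5), 3 in lung (5) and 1 in adipose tissue (2) without the marked libraries, and in hypothalamus (1) 2 with DESeq2 or array weights and 0 with no minimum mean or without the marked libraries. The cause was not tested. No paired analysis was possible because the air and ozone libraries of a tissue share no replicate number. The median of the 10 in muscle was -0.07 when scaled to total reads, and that in adrenal -0.07. Calls of low genes are limited by depth.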
